A study of Saccharomyces cerevisiae with 6 samples.

Results

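GCN4 and 48 genes of amino acid synthesis in budding yeast are described here, 49 of the 6400 named genes in a table of poly(A) RNA levels. The genes were given by name, by pathway: 7 act in arginine synthesis, 6 in histidine, 10 in the branched-chain amino acids leucine, isoleucine and valine, 7 in lysine, 6 in the shikimate and aromatic pathway, 4 in tryptophan, 5 in the aspartate and threonine branch and 3 in proline. All 49 were in the table, all passed the filter on low values, and none overlaps another annotated gene. The 6 libraries come from W303, a laboratory strain of Saccharomyces cerevisiae, and form the groups T1, T2 and T3, with replicates A and B in each. All 6 titles mark the cells as arrested, and the design of the series names cultures of 3 mean sizes. The labels give no size, time, genotype, agent or medium for any group, so the groups are compared by name, and nothing says that replicates came from separate cultures. P-values then measure the spread between these libraries, which may be technical. W303 stocks are known to carry mutant alleles at several synthesis loci, among them HIS3, LEU2 and TRP1, and the labels do not say which alleles these cells have. Values are TPM, a level per gene length that adds up to the same total in each library.

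Yeast makes all the amino acids of its proteins from ammonium and central metabolites, through enzymes that are mostly encoded by single genes. Gcn4 is a leucine zipper activator that binds upstream of many of these genes when amino acids run short, a response called general amino acid control. Its amount is set mainly by translation of its mRNA: uncharged tRNA activates the kinase Gcn2, which phosphorylates the initiation factor eIF2, and ribosomes then pass the upstream reading frames of the GCN4 transcript. RNA levels such as those given here therefore do not show how much Gcn4 protein or activity was present.

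The letters TGACTC, the core of the Gcn4 site, stood on either strand within 250 bases before to 50 bases after the start codon in 27 of the 49 genes (55.1%). Over all 5968 protein-coding genes with such a window in the R64 reference, 475 held them (7.96%). The longer form TGACTCA, every match of which holds TGACTC, stood in 20 of the 49 (40.8%) and in 2.7% of all. Sequences are those of the reference strain, not of W303, and a match is a description of letters, not evidence of binding. Of the 27 genes with TGACTC, 15 rose and 1 fell in T3 against T1, whereas all those printed next except ARG8 rose. The stretches shown belong to some of the genes whose levels are followed below. They are written 5′ to 3′ on the gene's own strand, with TGACTC, or GAGTCA where the match is on the other strand, in capitals.
HIS5 (R64, chrIX:142714-142743, plus strand): tcttggatctgtTGACTCacttcaattgat
LYS1 (R64, chrIX:420853-420882, minus strand): ttcagcgacaaaGAGTCAtaaagtcatcct
BAT1 (R64, chrVIII:517349-517378, plus strand): attgccttcttaTGACTCaaaattctattg
LEU4 (R64, chrXIV:426838-426867, minus strand): cttacgtgtaagTGACTCagttctttcaaa
ILV6 (R64, chrIII:105681-105710, minus strand): tcaccgttatcgTGACTCactttctttcgc
TRP2 (R64, chrV:337775-337804, plus strand): acagtgatttgcTGACTCattacgattttt
ARG2 (R64, chrX:306030-306059, plus strand): gatcttcccatgGAGTCAtaagcacgttcg
ARG8 (R64, chrXV:58567-58596, plus strand): cagctcgctatgTGACTCacttaaagtaca
The matches shown end 196 bases before the start codon in HIS5, 128 in LYS1, 165 in BAT1, 95 in LEU4, 144 in ILV6, 156 in TRP2, 84 in ARG2 and 174 in ARG8. LYS1 and TRP2 each hold a second match, not shown, which ends 243 bases before the start codon in LYS1 and lies within the coding sequence in TRP2. BAT2, LEU9, ARO8, ARG3 and GCN4 itself had no match in this window. The site of Leu3, the activator of leucine genes, was searched as CCG and CGG with any 4 bases between them, which reads the same on both strands. It stood in 3 of the 49 genes and in 1.46% of all promoters. BAT1 and HOM6 held 1 match each, that of HOM6 within the coding sequence. LEU1 held 2 matches, shown here in capitals in adjacent stretches because the gene has no TGACTC match.
LEU1 (R64, chrVII:478850-478879, minus strand): aacgaaaattCCGGGACCGGcgaaatttgc
LEU1 (R64, chrVII:478820-478849, minus strand): ccggttttgtCCGTAACCGGcttcatgagt

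Recovered depths were 17864675 to 23521036 fragments on open reading frames per library, and the least covered of the 49 genes, HIS6, still held 866 fragments, so counting error was small. The genes were abundant: their mean level over the 6 libraries had a median of 185.2 TPM, beside 36.2 TPM for all protein-coding genes tested, and ran from 30.6 TPM for ARG2 to 1011.5 TPM for ILV5. The cells carried alpha-cell transcripts, with MF(ALPHA)1 at 1648.7 TPM or more, while the a-cell gene STE2 lay at 3.45 to 6.53 TPM. All 5 alpha-cell markers followed fell in T3 against T1, by 0.36 (AFB1) to 1.21 (MF(ALPHA)2) on the log2 scale, and of 7 a-cell markers, at 0.77 to 11.2 TPM in all libraries, BAR1 rose (limma adjusted p = 0.0042). AGA2, with as few as 10 fragments in a library, also passed (0.0401), a call lost under 8 of its alternatives, among them without T1 replicate B (0.315), when either T3 replicate was left out (0.0925 for A, 0.122 for B) and under the 3 other scalings (0.0729 to 0.184). The part of these shifts in the results below was not tested. Cytosolic ribosomal protein genes took 42.3% and 40.4% of all TPM in T1, 40.2% and 37.8% in T2, and 33.9% and 35.8% in T3. A falling share of so large a group raises the TPM of other genes, and 3 other scalings moved the median log2 change of all genes in T3 against T1 by -0.092, -0.126 and -0.144. Replicates also differed in a common direction: 45 of the 49 genes were higher in B than in A in T1, as were 67.3% of all genes tested, and 48 were in T2, as were 76.6%. In T3, 36 of the 49 were higher in A, as were 64.6% of all genes. The part of this replicate difference in the results was not tested.

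The comparison of T3 with T1 asks how far these transcripts differed between the outermost groups. In T3, GCN4 and most lysine, histidine and tryptophan genes were higher, led by BAT2, LYS1, HIS5 and ARO8, while ARG8, LEU9 and ARG3 were lower and the threonine and proline genes mostly did not pass the test. Of the 49 genes 25 rose (51.0%) and 4 fell (8.16%), beside 31.0% and 16.9% of all 6046 genes tested (limma on log2(TPM + 1), adjusted p under 0.05). The median log2 change was 0.26, beside 0.09 for all genes tested. The split between rises and falls depended on the scaling: it was 21 and 9 under median-of-ratios scaling, 14 and 11 under quantile normalization, and 16 and 11 with ribosomal protein genes left out of the total. The share of the 49 that rose was then 42.9%, 28.6% and 32.7%, beside 26.3%, 23.5% and 22.7% of all genes tested, and the share that fell was 18.4%, 22.4% and 22.4%, beside 25.9%, 28.5% and 29.8%. ARG1, HIS7, ARO4 and HOM2 lost their calls under all 3 of these scalings, ARG4, HIS4, LEU4, LYS2 and TRP3 under the latter pair, and ARG7 and ILV6 under quantile normalization. CPA1, HIS1, HOM3 and PRO2 passed as falls under all 3, ARO2 and THR1 under the latter pair, ILV5 under median-of-ratios scaling and with ribosomal protein genes left out, and HOM6 under quantile normalization. Rises numbered 15 without T1 replicate A (30.6%, beside 26.2% of all genes) and 17 without T3 replicate A (34.7%, beside 23.0%). Under all 17 alternative settings, 13 rises and 3 falls passed: GCN4, ARG2, HIS2, HIS5, BAT1, BAT2, LYS1, LYS9, LYS12, LYS21, TRP2, TRP5 and ARO8 rose, and ARG3, ARG8 and LEU9 fell. The matching share of all genes tested is not given here, so the counts under all 17 settings cannot be set against it. Of the 27 genes with TGACTC in the window 15 rose and 1 fell (median log2 change 0.33), and of the 22 without it 10 rose and 3 fell (median 0.11), a difference that was not tested.

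**Figure D1:**
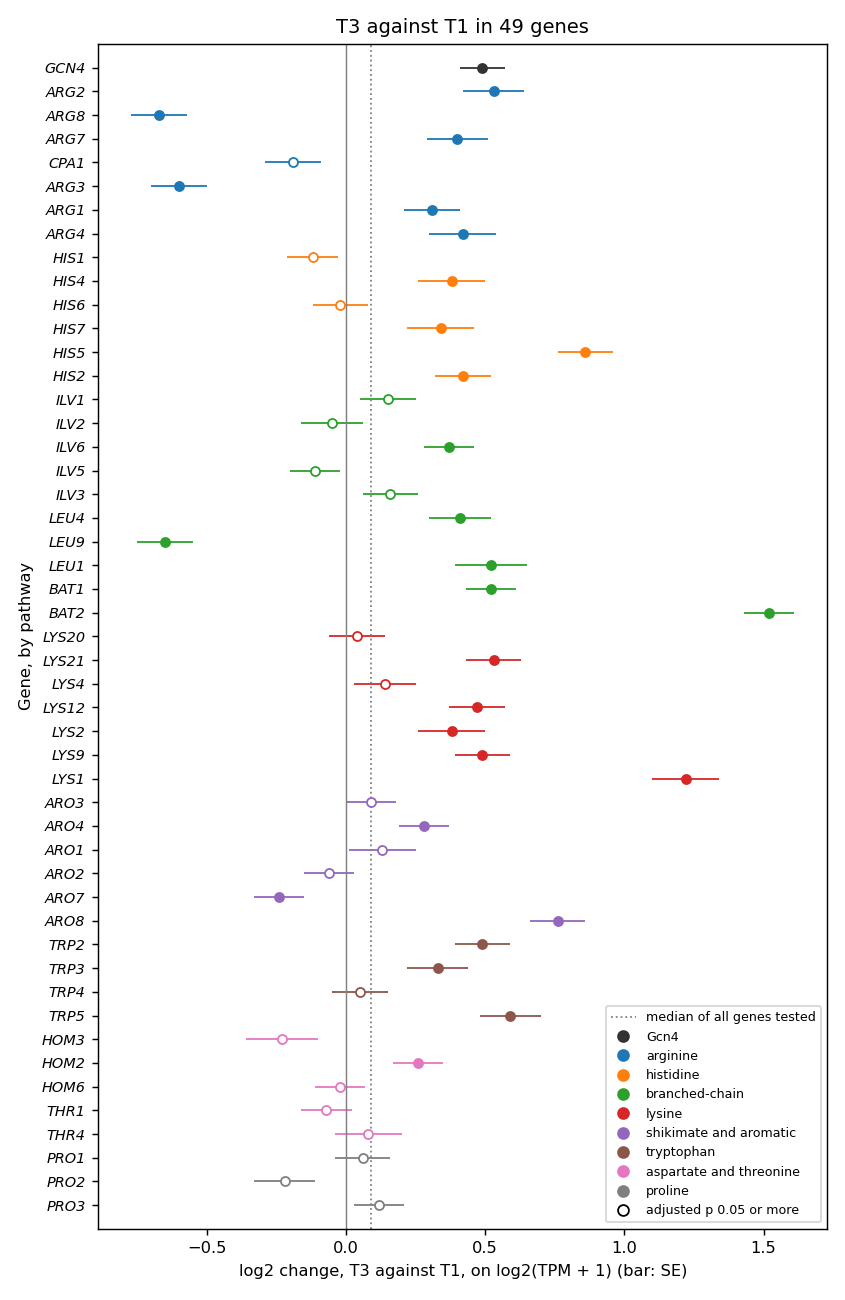
Log2 change of each of the 49 genes in T3 against T1 on the log2(TPM + 1) scale (x axis), with genes by pathway on the y axis and bars showing the standard error. Filled points passed the threshold, 25 to the right of 0 and 4 to the left, and the dotted line marks the median of all genes tested, 0.09.

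The 49 genes together held 1.02% and 1.12% of all TPM in libraries A and B of T1, 1.02% and 1.14% in those of T2, and 1.29% and 1.22% in those of T3. The sums of T1 and T2 overlapped, and both T3 sums lay above them. Ribosomal protein genes took 42.3% and 40.4% of all TPM in T1 and 33.9% and 35.8% in T3. No sum here was taken under the other scalings, and the part of that fall in the sums was not tested. Lysine genes held 792 and 899 TPM in T1 and 1206 and 1163 TPM in T3, tryptophan genes 454 and 535 TPM in T1 and 678 and 638 TPM in T3. Proline genes held 470 and 518 TPM in T1 and 522 and 478 TPM in T3, so their groups overlapped.

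**Figure D2:**
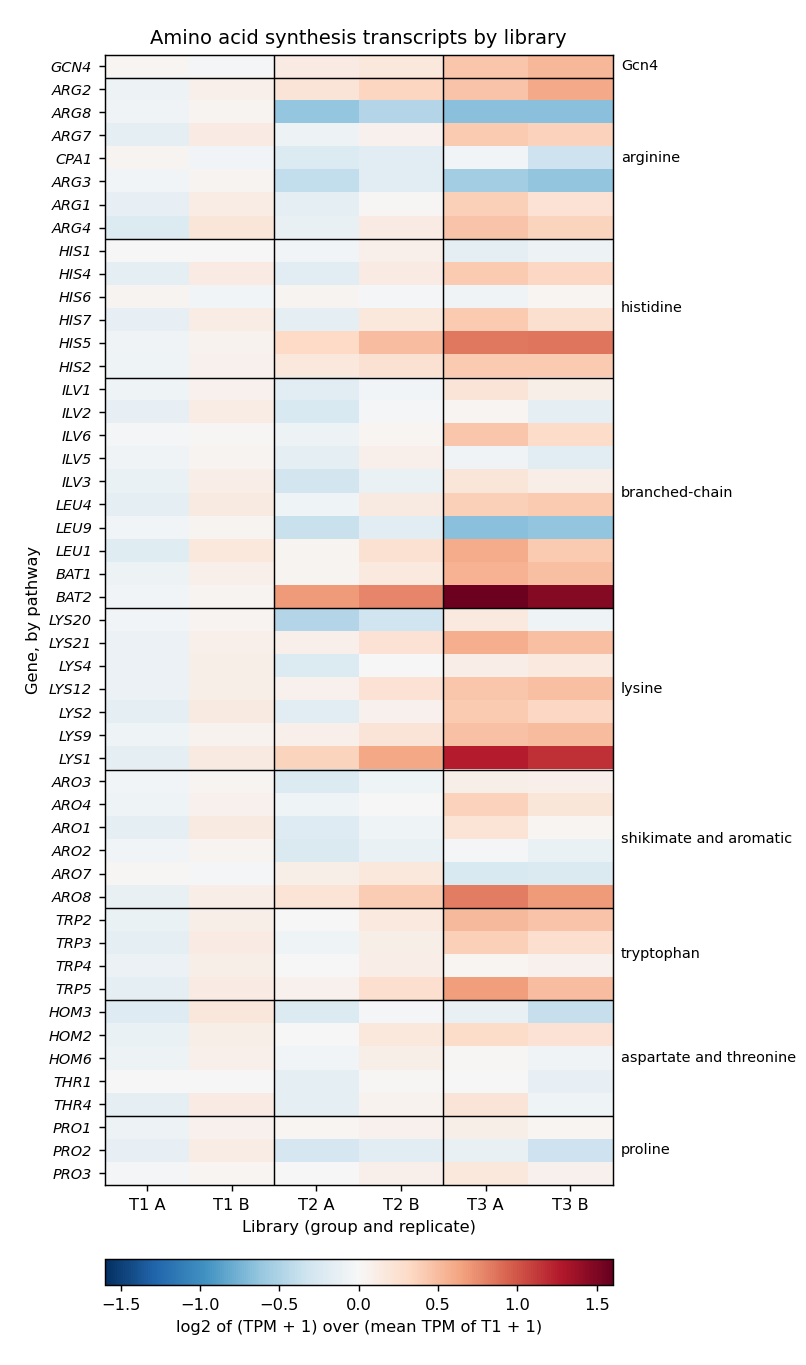
Level of each gene in each library as the log2 ratio of TPM + 1 to the T1 mean plus 1 (color), with libraries in columns and genes by pathway in rows. BAT2, LYS1, HIS5 and ARO8 are the darkest red rows in T3, and ARG8, LEU9 and ARG3 the darkest blue ones.

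GCN4, on chromosome V (138918 to 139763, minus strand, YEL009C), had 607.2 and 579.1 TPM in libraries A and B of T1, 648.0 and 668.7 TPM in those of T2, and 805.3 and 859.1 TPM in those of T3. Values are given in this order, A before B, throughout. The 3 groups did not overlap, and both T3 libraries stood clear of the others. GCN4 rose 1.40-fold in T3 against T1 (593.2 ± 19.9 to 832.2 ± 38.1 TPM, SD, n = 2; log2 change 0.49, SE 0.08, limma adjusted p = 0.000206). Every fold given was computed after adding 1 to each TPM, so that for low genes it understates the ratio of the TPM values. The rise from T2 to T3 measured 0.34 on the log2 scale (limma adjusted p = 0.00838), and the one from T1 to T2, 0.15, did not pass (0.217). The T2 to T3 call was lost without T2 replicate A (0.073), without T3 replicate B (0.0672), under median-of-ratios scaling (0.051) and with ribosomal protein genes left out of the total (0.05).

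Of 5 genes that act on Gcn4 as a coactivator or in its turnover, 2 rose and 1 fell in T3 against T1. PCL5 encodes the cyclin that directs the kinase Pho85 to Gcn4, which marks it for degradation. It lay at 163.2 and 143.6 TPM in T1, 206.3 and 208.8 in T2, and 347.7 and 365.4 in T3, with no overlap between groups. It rose 2.32-fold in T3 against T1 (limma adjusted p = 2.11e-07), and PHO85 itself rose 1.41-fold (0.0016). MBF1 encodes a coactivator that joins Gcn4 to the TATA-binding protein. Its T3 libraries, at 1075.6 and 1002.4 TPM, lay below its T1 libraries, at 1440.7 and 1494.6 TPM, and it fell by 0.50 on the log2 scale (limma adjusted p = 0.000102). Of 12 genes that act in the control of GCN4 translation through Gcn2 and eIF2, 1 rose, 1 fell and 10 did not pass. Under the other scalings 1 of them rose and 4, 5 and 5 fell. GCN2 went from 14.8 and 16.0 TPM in T1 to 21.5 and 20.8 TPM in T3 (log2 change 0.43, limma adjusted p = 0.00845), a call lost without T3 replicate A (0.0505). GCD11, the gene of the gamma subunit of eIF2, fell by 0.40 on the log2 scale (limma adjusted p = 0.0044).

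**Figure D3:**
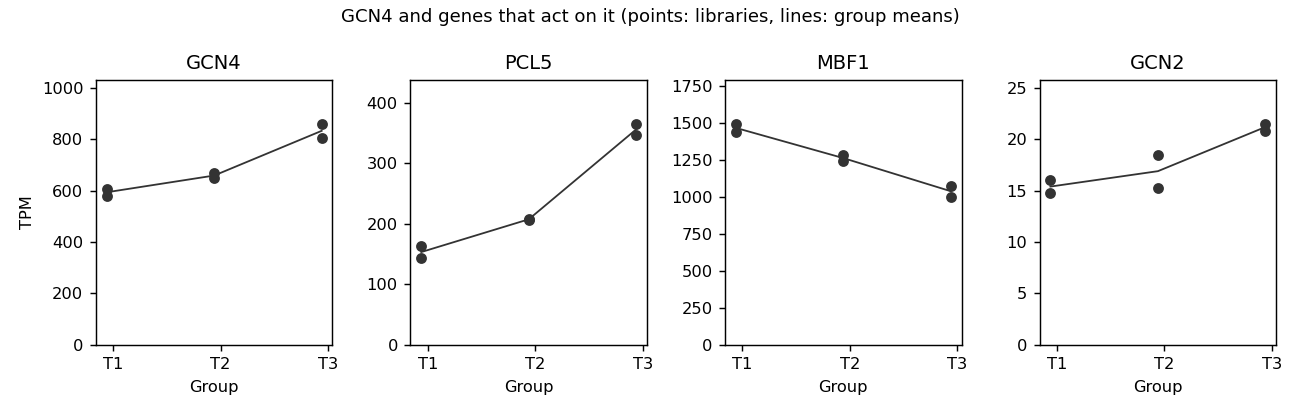
TPM (y axis) of GCN4, PCL5, MBF1 and GCN2 in the groups T1, T2 and T3 (x axis), with a point for each library and a line through the group means. GCN4 and PCL5 are highest in both T3 libraries and MBF1 is lowest there.

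Arginine is made from glutamate by way of ornithine, which takes up carbamoyl phosphate to form citrulline. Of the 7 genes 4 rose and 2 fell in T3 against T1. The split was 3 and 3 under median-of-ratios scaling and 1 and 3 under quantile normalization. With ribosomal protein genes left out of the total it was 2 and 3. Counts by pathway or list, above and below, stand beside 31.0% of all genes tested that rose and 16.9% that fell. Under the 3 other scalings 26.3%, 23.5% and 22.7% of all genes rose and 25.9%, 28.5% and 29.8% fell. No pathway or list count was tested against these shares. ARG2, the gene of acetylglutamate synthase at the head of the pathway, had 23.4 and 26.3 TPM in T1 and 34.4 and 38.4 TPM in T3 and rose 1.45-fold (limma adjusted p = 0.00119). ARG8, the acetylornithine aminotransferase gene, had 82.7 and 88.6 TPM in T1, 55.6 and 61.5 in T2, and 53.6 and 53.6 in T3. T1 stood above the other groups in ARG8, which had a log2 change of -0.54 in T2 against T1 (SE 0.10, limma adjusted p = 0.00193) and of -0.67 in T3 against T1 (8.95e-05). Its change in T3 against T2, -0.12, did not pass (0.4). A test of the difference between its steps did not pass either (0.42, SE 0.17, limma adjusted p = 0.322). ARG3, the ornithine carbamoyltransferase gene, had 279.1 and 296.6 TPM in T1, 219.3 and 254.9 in T2, and 194.6 and 184.9 in T3. Its groups did not overlap, each lower than the one before, and it fell by 0.60 on the log2 scale in T3 against T1 (limma adjusted p = 0.000187).

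ARG1 and ARG4, whose enzymes turn citrulline into arginine by way of argininosuccinate, rose from 409.7 ± 48.4 to 507.1 ± 35.8 TPM and from 357.1 ± 70.5 to 473.4 ± 22.3 TPM (SD, n = 2). ARG7, the gene of the ornithine acetyltransferase of mitochondria, rose 1.32-fold. These 3 calls were lost without T1 replicate A (limma adjusted p = 0.191 for ARG1, 0.135 for ARG4 and 0.0961 for ARG7), and those of ARG1 and ARG4 without T3 replicate A (0.142 and 0.0508). CPA1, the gene of the small subunit of the arginine-specific carbamoyl phosphate synthase, lay at 383.4 ± 17.6 TPM in T1 and 337.7 ± 46.2 TPM in T3 and did not pass (0.134). It did as a fall without T3 replicate A (0.03), under median-of-ratios scaling (0.0394), under quantile normalization (0.00836) and with ribosomal protein genes left out of the total (0.0142). Outside the 49 genes, ARG80, which encodes a regulator of arginine genes, went from 39.4 and 43.5 TPM in T1 to 29.3 and 28.2 TPM in T3 (log2 change -0.51, limma adjusted p = 0.00101). CAR1, the arginase gene of arginine breakdown, went from 63.2 and 83.3 TPM in T1 to 170.9 and 148.2 TPM in T3, a 2.18-fold rise (6.55e-06).

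In histidine synthesis 4 of the 6 genes rose in T3 against T1 and 0 fell; under the 3 other scalings, in the order above, 3, 2 and 2 rose and 1 fell in each. HIS5, the histidinol-phosphate aminotransferase gene, had 128.6 and 139.7 TPM in T1, 167.1 and 189.4 in T2, and 242.3 and 244.4 in T3. Its groups did not overlap, and HIS5 rose 1.81-fold in T3 against T1 (log2 change 0.86, SE 0.10, limma adjusted p = 7.31e-06). HIS2, the gene of the phosphatase that acts after it, rose 1.34-fold, from 51.8 and 56.8 TPM to 73.1 and 73.1 TPM (0.00268). HIS1, whose enzyme commits phosphoribosyl pyrophosphate to the pathway, was the most abundant of the 6, at 399.0 ± 1.66 TPM in T1 and 367.9 ± 13.3 TPM in T3 (SD, n = 2). It did not pass (limma adjusted p = 0.274), though it did as a fall under quantile normalization (0.00443), under median-of-ratios scaling (0.0334) and with ribosomal protein genes left out of the total (0.0135). HIS6, an isomerase gene, lay at 48.6 to 52.2 TPM over all 6 libraries.

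HIS4, which encodes an enzyme of several steps, rose 1.31-fold and HIS7, the imidazole glycerol-phosphate synthase gene, 1.27-fold. Both calls were lost without T1 replicate A (limma adjusted p = 0.102 for HIS4 and 0.175 for HIS7) and without T3 replicate A (0.067 and 0.177). HIS3, at a step between HIS7 and HIS5 and outside the 49 genes, had 1361.0 and 1466.1 TPM in T1 and 2141.2 and 2033.3 TPM in T3. In every library its level lay above that of each of the 6 histidine genes. Reads of the resident HIS3 locus and of any marker copy cannot be told apart in these values.

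**Figure D4:**
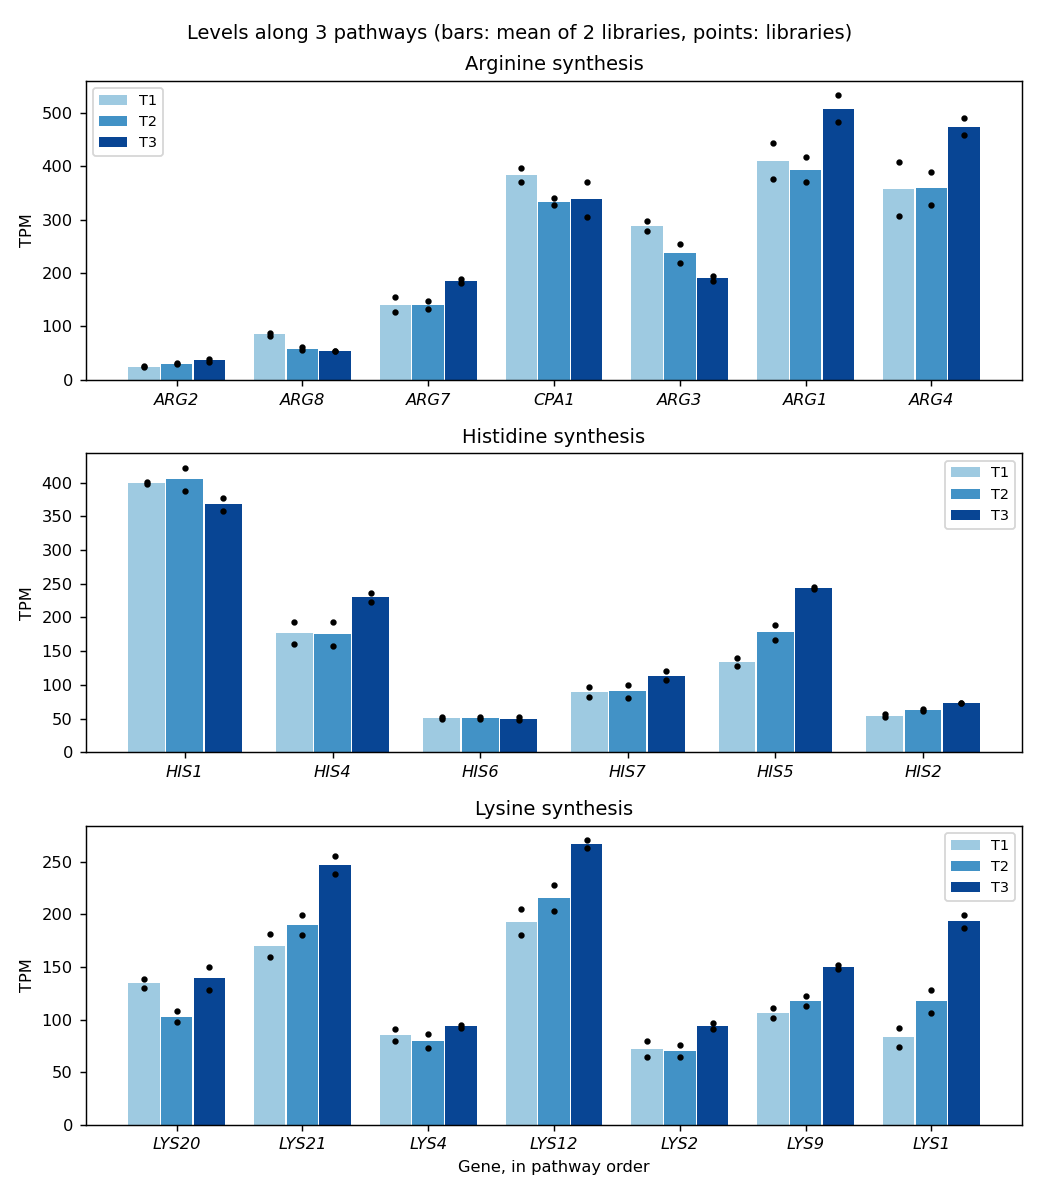
TPM (y axis) of the arginine, histidine and lysine genes in pathway order (x axis), with bars for the mean of 2 libraries in T1, T2 and T3 and points for the libraries. ARG8 and ARG3 step down while ARG2, ARG7, ARG1 and ARG4 are highest in T3, and HIS5 and LYS1 show the largest steps up of their pathways.

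Of the 10 branched-chain genes 5 rose and 1 fell in T3 against T1, and 5, 3 and 4 rose and 2, 1 and 2 fell under the other scalings. The largest rise of the 49 genes was that of BAT2, the cytosolic branched-chain aminotransferase gene on chromosome X (705744 to 706874, plus strand, YJR148W). It had 123.6 and 132.1 TPM in T1, 205.6 and 221.0 in T2, and 380.8 and 355.2 in T3. Its groups did not overlap, and it rose 2.86-fold in T3 against T1 (log2 change 1.52, SE 0.09, limma adjusted p = 2.68e-08). BAT1 encodes the mitochondrial form, which has the larger part in synthesis, and went from 244.8 and 274.1 TPM in T1 to 381.7 and 361.3 TPM in T3, a 1.43-fold rise (0.000428). BAT1 had 1.98 and 2.08 times the TPM of BAT2 in T1, 1.3 and 1.31 times in T2, and 1.0 and 1.02 times in T3. The cytosolic form went from the lower level in T1 to about the level of the mitochondrial form in T3.

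The genes of 2-isopropylmalate synthase, which commits carbon to leucine, moved apart. LEU4, the major form, had 148.3 and 182.0 TPM in T1 and 215.5 and 221.1 TPM in T3 and rose 1.33-fold (limma adjusted p = 0.00806). LEU9, the minor form, had 102.4 and 108.1 TPM in T1, 82.0 and 93.5 in T2, and 65.9 and 67.7 in T3, without overlap, and fell by 0.65 on the log2 scale in T3 against T1 (0.000121). The ratio of LEU4 to LEU9 was 1.45 and 1.68 in T1, 1.92 and 1.95 in T2, and 3.27 and 3.26 in T3. LEU4 passed in the reported fit, but its call was lost without T1 replicate A (0.0893) and under quantile normalization (0.0858). LEU1, the isopropylmalate isomerase gene, rose 1.43-fold (0.00403), a call lost with no filter on low values (0.0598).

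The enzymes common to isoleucine and valine include the gene with the highest level of all 49. ILV5, which encodes acetohydroxyacid reductoisomerase, lay at 1045.1 ± 51.5 TPM in T1 and 968.0 ± 52.1 TPM in T3 (SD, n = 2; limma adjusted p = 0.33). ILV2, which encodes the catalytic subunit of acetolactate synthase, had 242.3 ± 30.2 TPM in T1 and 233.7 ± 19.4 TPM in T3 (0.746). ILV6, the gene of the regulatory subunit that carries feedback by valine, went from 364.1 and 375.3 TPM in T1 to 502.4 and 453.4 TPM in T3 and rose 1.29-fold (0.00366), a call lost under quantile normalization (0.126). The ratio of ILV2 to ILV6 was 0.607 and 0.702 in T1, 0.584 and 0.635 in T2, and 0.492 and 0.485 in T3, so the T3 libraries lay below all others. ILV1, the threonine deaminase gene, and ILV3, the dihydroxyacid dehydratase gene, had log2 changes of 0.15 and 0.16 and did not pass (0.21 and 0.216). LEU3, the gene of the leucine regulator, lay at 17.3 to 20.4 TPM over all 6 libraries.

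**Figure D5:**
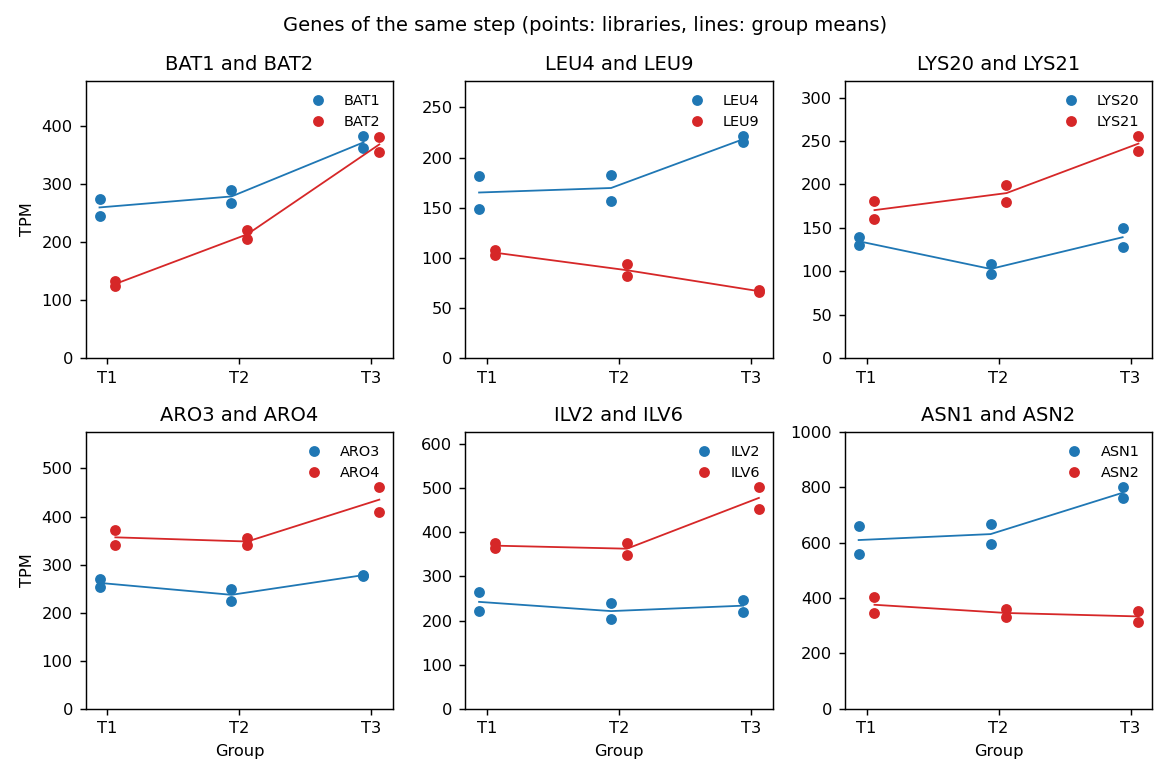
TPM (y axis) in the groups T1, T2 and T3 (x axis) for pairs of genes that encode forms or subunits of the same enzyme, with a point for each library and lines through the group means. BAT1 and BAT2 meet in T3, where their ratio is 1.0 and 1.02, and LEU4 and LEU9 move apart.

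Lysine is made in yeast by the alpha-aminoadipate pathway, which starts from 2-oxoglutarate. Of the 7 genes 5 rose in T3 against T1 and 0 fell, with a median log2 change of 0.47, and under the other scalings 5, 4 and 4 rose and 0 fell. LYS1, the gene of the saccharopine dehydrogenase that releases lysine at the end of the pathway (chromosome IX, 419615 to 420736, minus strand, YIR034C), had 74.3 and 91.7 TPM in T1, 106.5 and 128.4 in T2, and 199.8 and 187.3 in T3. Its groups did not overlap and it rose 2.33-fold in T3 against T1 (log2 change 1.22, SE 0.12, limma adjusted p = 2.05e-06). LYS9, whose enzyme makes saccharopine, rose 1.40-fold, and LYS12, the homoisocitrate dehydrogenase gene and the most abundant of the 7, rose 1.38-fold to 266.9 ± 5.27 TPM. LYS2, the aminoadipate reductase gene, rose 1.30-fold, a call lost without T1 replicate A (0.151) and without T3 replicate A (0.0822). LYS4, the homoaconitase gene, had 85.4 ± 8.04 TPM in T1 and 93.8 ± 2.12 TPM in T3 and did not pass (0.314). LYS5, outside the 49 genes, encodes the enzyme that activates the LYS2 product and rose 1.58-fold (0.000125).

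LYS20 and LYS21 encode forms of homocitrate synthase, the enzyme that starts the pathway and that lysine inhibits. LYS21 had 159.8 and 181.1 TPM in T1, 180.3 and 199.7 in T2, and 255.2 and 238.8 in T3, and rose 1.45-fold in T3 against T1 (limma adjusted p = 0.000532). LYS20 had 130.3 and 138.9 TPM in T1, 97.3 and 108.1 in T2, and 150.3 and 128.1 in T3, so T2 lay below the other groups, which overlapped. LYS20 had log2 changes of -0.39 in T2 against T1 (0.0202) and 0.43 in T3 against T2 (0.00949), the latter lost without T2 replicate A (0.0862) and without T3 replicate A (0.126). It was the 1 gene of the 49 whose steps differed in the test of the difference itself (0.82, SE 0.18, limma adjusted p = 0.0472). That test was called in 1.08% of all genes. The call of LYS20 in it did not hold under 10 of 16 alternatives. Among these were the 3 other scalings (limma adjusted p = 0.0896, 0.0926 and 0.0736), a replicate block (0.0726) and a pseudocount of 0.1 (0.0527). That call was lost without T2 replicate A (0.424), without T2 replicate B (0.0838) and without T3 replicate A (0.107). The ratio of LYS20 to LYS21 was 0.816 and 0.767 in T1 and 0.537 to 0.589 in the T2 and T3 libraries.

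The shikimate pathway leads to chorismate, from which tryptophan, phenylalanine and tyrosine are made. Of its 6 genes here 2 rose and 1 fell in T3 against T1, and of the 4 tryptophan genes 3 rose and 0 fell. Under the other scalings 1 shikimate gene rose in each and 1, 2 and 2 fell, and 3, 2 and 2 tryptophan genes rose and 0 fell. ARO8, an aminotransferase gene of the end of phenylalanine and tyrosine synthesis that also acts on aminoadipate, had 279.1 and 328.1 TPM in T1, 352.6 and 401.2 in T2, and 535.4 and 488.8 in T3. Its groups did not overlap, and it rose 1.69-fold in T3 against T1 (log2 change 0.76, SE 0.10, limma adjusted p = 3.97e-05). ARO9, outside the 49 genes, encodes a related aminotransferase of aromatic amino acid breakdown and rose 4.0-fold, from 5.99 and 8.88 TPM in T1 to 34.2 and 30.5 TPM in T3 (3.15e-07). ARO8 had 46.6 and 37.0 times the TPM of ARO9 in T1 and 15.7 and 16.0 times in T3, a pair chosen after its values were seen. ARO10, the gene of a decarboxylase that acts after this transamination in breakdown, rose 2.36-fold (1.09e-05).

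The entry of the pathway has forms of DAHP synthase that answer to different end products. ARO4, the form inhibited by tyrosine, went from 356.7 ± 22.7 to 435.1 ± 36.9 TPM (SD, n = 2; limma adjusted p = 0.0199), a call lost without T1 replicate A (0.131) and without T3 replicate A (0.19). ARO3, the form inhibited by phenylalanine, had 253.4 and 270.4 TPM in T1 and 279.0 and 277.2 TPM in T3 and did not pass (0.452). The ratio of ARO3 to ARO4 was 0.744 and 0.725 in T1 and 0.605 and 0.678 in T3. ARO1, which encodes the enzyme of the middle steps, and ARO2, the chorismate synthase gene, had log2 changes of 0.13 and -0.06 and did not pass (0.384 and 0.602). ARO7 encodes chorismate mutase, at the branch away from tryptophan, and had 78.5 and 76.9 TPM in T1, 82.7 and 87.5 in T2, and 65.6 and 65.9 in T3. T3 was lowest in ARO7, but its log2 change of -0.24 in T3 against T1 lay at the threshold (0.0493). The call was lost when any of the 6 libraries was left out, with adjusted p between 0.0572 without either T2 replicate and 0.182 without T1 replicate A.

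At the other side of that branch, TRP2, the gene of anthranilate synthase, rose 1.41-fold, from 139.8 and 161.4 TPM in T1 to 216.2 and 207.7 TPM in T3 (limma adjusted p = 0.00119). TRP5, the tryptophan synthase gene, rose 1.5-fold, from 133.3 and 160.6 TPM to 233.9 and 208.2 TPM (0.000715). T1 and T3 did not overlap in either gene. TRP3, whose product joins Trp2 in anthranilate synthase and also forms indole glycerol phosphate, rose 1.26-fold, a call lost without T1 replicate A (0.245) and without T3 replicate A (0.137). TRP4, the phosphoribosyl transferase gene, had 97.0 to 112.1 TPM over all 6 libraries and did not pass (0.703).

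The aspartate branch leads to homoserine and from there to threonine and methionine. Of its 5 genes 1 rose and 0 fell in T3 against T1, whereas under the other scalings 0 rose and 1, 3 and 2 fell. HOM2, the aspartate semialdehyde dehydrogenase gene and the most abundant of the 5, had 508.1 and 581.7 TPM in T1 and 666.8 and 637.9 TPM in T3 and rose 1.2-fold (limma adjusted p = 0.0315). The call of HOM2 was lost without T1 replicate A (0.246), without T3 replicate A (0.135) and without T3 replicate B (0.0546), and under quantile normalization (0.768). HOM3, the gene of aspartate kinase, the feedback point of the branch, had 153.9 and 201.3 TPM in T1 and 163.3 and 137.7 TPM in T3 and did not pass (0.157). It did as a fall without T1 replicate A (0.00435), under median-of-ratios scaling (0.0495), under quantile normalization (0.0265) and with ribosomal protein genes left out of the total (0.0266). HOM6, THR1 and THR4, the genes of homoserine dehydrogenase, homoserine kinase and threonine synthase, had log2 changes of -0.02, -0.07 and 0.08 and did not pass (0.892, 0.557 and 0.621). T1 and T3 overlapped in HOM6 and THR4, while in THR1 they lay next to each other, at 236.1 and 237.0 TPM in T1 and 234.6 and 215.8 TPM in T3.

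Proline is made from glutamate by 3 enzymes, and 0 of their genes passed in T3 against T1. PRO1, the glutamyl kinase gene, lay at 65.1 to 73.5 TPM over all 6 libraries and PRO3, which encodes the last enzyme, at 266.2 to 307.8 TPM. PRO2 lay at 152.3 ± 18.7 TPM in T1 and 130.7 ± 14.1 TPM in T3 (SD, n = 2; limma adjusted p = 0.12). It passed as a fall without T1 replicate A (0.026), under quantile normalization (0.00946), under median-of-ratios scaling (0.0209), with ribosomal protein genes left out of the total (0.0102) and in the test on recovered fragments (0.0308). The genes of proline breakdown moved more: PUT1, the proline oxidase gene, rose from 12 and 12.5 TPM in T1 to 25.1 and 24.9 TPM in T3 (6.73e-06).

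The steps from T1 to T2 and from T2 to T3 share the T2 libraries, so their values are given side by side. From T1 to T2, 4 of the 49 genes rose (8.16%, beside 11.9% of all genes tested) and 2 fell (4.08%, beside 6.10%). Under the other scalings 4, 3 and 3 rose and 4, 6 and 5 fell. Those rises were 8.16%, 6.12% and 6.12% of the 49, beside 12.2%, 10.9% and 10.1% of all genes tested. The falls were 8.16%, 12.2% and 10.2%, beside 8.9%, 10.1% and 10.9%. BAT2, LYS1, HIS5 and ARO8 rose, with log2 changes of 0.73, 0.50, 0.41 and 0.31 (limma adjusted p = 0.000121, 0.0107, 0.00991 and 0.0475), and ARG8 and LYS20 fell. Of these calls, those of BAT2 and ARG8 passed under all 17 alternatives. Without T2 replicate B the calls of LYS1 (0.1), HIS5 (0.0977) and ARO8 (0.278) were lost, that of ARO8 also without T1 replicate A (0.273), and that of LYS20 without T1 replicate B (0.0615) and without T2 replicate A (0.14). From T2 to T3, 21 rose (42.9%, beside 15.8%) and 3 fell (6.12%, beside 6.09%). Under the other scalings 17, 12 and 13 rose and 3, 4 and 4 fell. The rises were then 34.7%, 24.5% and 26.5% of the 49, beside 13%, 11.7% and 11.3% of all genes tested. The falls were 6.12%, 8.16% and 8.16%, beside 11.3%, 12.1% and 12.6%. BAT2, LYS1 and HIS5 had the largest rises of this step, at log2 changes of 0.78, 0.72 and 0.45 (9.13e-05, 0.000898 and 0.0044), and LEU9, ARO7 and ARG3 fell by 0.39, 0.37 and 0.32 on the log2 scale (0.0136, 0.0127 and 0.0316).

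Those counts of the step from T2 to T3 depended most on T2 replicate A and T3 replicate A. Without T2 replicate A 2 rose and 3 fell (10.2% called, beside 12.2% of all genes tested), and without T3 replicate A 4 rose and 0 fell (8.16%, beside 10.6%), so in both fits the share called was below that of all genes. In that step the call of BAT2 was the 1 that passed under all 17 alternatives, with a highest adjusted p of 0.0241. The call of HIS5 was lost without T2 replicate A (0.0598), and that of LYS1 with no filter on low values (0.0503). The falls of LEU9, ARO7 and ARG3 were lost without T2 replicate B (0.111, 0.0747 and 0.241) and without T3 replicate A (0.0864, 0.081 and 0.0775), and those of ARO7 and ARG3 also without T3 replicate B (0.0593 and 0.143). Over all 3 groups at once, 30 of the 49 genes differed (61.2%, beside 43.6% of all genes tested), and 18 did without T3 replicate A (36.7%, beside 32.4%).

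Genes of the same pathways outside the 49 were followed as lists. Of 20 other synthesis genes 10 rose and 1 fell in T3 against T1, with a median log2 change of 0.26, and under the other scalings 9, 7 and 6 rose and 3, 5 and 4 fell. GDH1, the main glutamate dehydrogenase gene of ammonium assimilation, went from 513.3 and 616.3 TPM in T1 to 1002.4 and 886.2 TPM in T3 and rose 1.67-fold (limma adjusted p = 3.47e-05). GDH3, which encodes a second form, rose 1.52-fold from 16.3 ± 1.2 TPM, and the ratio of GDH1 to GDH3 stayed between 33.2 and 38.9 in the 6 libraries. ASN1 and ASN2, the asparagine synthetase genes, had ratios of 1.61 and 1.63 in T1 and 2.26 and 2.42 in T3. ASN1 rose 1.28-fold (0.0068), a call lost without T1 replicate A (0.0727), under quantile normalization (0.154) and with ribosomal protein genes left out of the total (0.0616). ASN2 had a log2 change of -0.17 and did not pass (0.18), but did as a fall under the other scalings (0.0262, 0.00466 and 0.0121). AAT1, the mitochondrial aspartate aminotransferase gene, fell by 0.37 on the log2 scale (0.0125), a call lost without T1 replicate B (0.0963) and without T3 replicate A (0.141).

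Of 7 genes of amino acid breakdown 6 rose (85.7%, beside 31.0% of all genes tested) and 1 fell (14.3%, beside 16.9%) in T3 against T1. Under the other scalings 6, 5 and 6 rose and 1 fell. Beside CAR1, PUT1 and ARO10, GDH2, which releases ammonium from glutamate, rose 1.79-fold (limma adjusted p = 9.09e-05). CAR2 and PUT2, which act after CAR1 and PUT1, rose 1.59-fold and 1.36-fold, calls lost without T3 replicate A (0.118 and 0.0709). CHA1, the serine and threonine deaminase gene, had 98.1 and 102.4 TPM in T1, 57.1 and 47.8 in T2, and 16.4 and 15.2 in T3. Its groups lay far apart, with a log2 change of -2.60 in T3 against T1 (SE 0.11, 1.7e-09). Of 9 genes of pathway regulators, ARG82 rose (log2 change 0.44, 0.00349), ARG80 fell and 7 did not pass, and under the other scalings 1 rose and 2, 3 and 3 fell.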

How the data were processed

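Poly(A) RNA of 6 yeast libraries was sequenced, and the authors deposited 1 table of TPM, in which every library adds up to the same total. STAR 2.5.2b, featureCounts, Subread 1.5.2 and build R64 are named, without settings, per the submitters' processing notes; strand setting and the treatment of shared reads are not given in the sources used here. Of 6401 entries 1 has no name (4.74 to 5.83 TPM) and was left out, and 6082 matched RefSeq R64. Dividing TPM by what 1 fragment is worth at each gene's length gave whole fragments: between 99.84% and 99.93% of reading frames holding up to 500 fragments came within 0.1 of an integer. limma 3.58.1 in R 4.3.3 was run on log2(TPM + 1) of the 6046 genes averaging 1 TPM or more, with group means over all 6 libraries and an abundance trend (3 residual and 10.7 prior degrees of freedom). P-values are two-sided and Benjamini-Hochberg adjusted over all 6046 genes, with 0.05 as threshold; the procedure was tested on simulated data. The genes, lists and tests were chosen with earlier results of these data known. The rule for naming took GCN4, the most abundant gene and the 2 largest called rises and falls of each pathway, the 3 largest of each step, the pairs of one enzyme, and the largest rise and fall of each further list. The other members are named for account, and other genes of the further lists were chosen after their values were seen. Alternatives changed the pseudocount, filter, scaling, trend, groups fitted, replicate block or test (voom on recovered fragments), or left out a library. Python 3.11.15, pandas 2.3.3 and matplotlib 3.10.9 made tables and plots.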

Additional observations from a re-analysis of the deposited data

How the results depend on the processing

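Counts are of the 49 genes called. Over the libraries left out in turn, T3 against T1 gave 20 to 28 calls (29 with all), T2 against T1 gave 4 to 6 (6), T3 against T2 gave 4 to 27 (24), any group difference gave 18 to 32 (30) and the difference between steps gave 0 to 3 (1). The fewest calls in T3 against T1, without T1 replicate A, were 40.8% of the 49 genes beside 43.0% of all genes, and the fewest in T3 against T2, without T3 replicate A, 8.16% beside 10.6%. With no filter on low values the 5 counts were 18, 2, 6, 17 and 0; the share of the 49 in T3 against T1 was then 36.7%, beside 37.6% of all genes, and in the next 3 it was 4.08%, 12.2% and 34.7%, beside 8.5%, 9.8% and 28.0%. The test on recovered fragments gave 10 calls in T2 against T1 (20.4%, beside 26.3% of all genes). A fit without the abundance trend gave 13 in T3 against T2 (26.5%, beside 16.0%). For the difference between steps the count was 0 with a pseudocount of 0.1, under each of the 3 other scalings, without the trend and with the replicate block. The replicate block gave 28, 5, 24 and 29 calls in the other comparisons. Deviations of the same letter correlated at 0.132, -0.058 and -0.15 between groups. These values cannot decide whether libraries of the same letter share more than the letter. Most genes were higher in B in both T1 and T2, and in A in T3, and the labels do not describe the replicates. The log2 change of AAT2 in T3 against T1 was -0.22 under quantile normalization and 0.04 in the reported fit. That of MFA2 was -0.07 with all libraries, 0.75 when T3 replicate A and -0.89 when T3 replicate B was left out, at 1.51 to 6.84 TPM. Apart from these shifts, whose cause was not tested, every total of calls in both directions stayed within 1.5 times its reported value. Counts by direction did not. Under quantile normalization T3 against T1 gave 14 rises and 11 falls (25 and 4 reported). T2 against T1 then gave 6 falls (2) and T3 against T2 gave 12 rises (21). In this order these were 28.6%, 22.4%, 12.2% and 24.5% of the 49, beside 23.5%, 28.5%, 10.1% and 11.7% of all genes. With 2 libraries a group, changes of the size of the replicate spread cannot be resolved.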
